A study of Mus musculus with 4 samples.

Results

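The cells described here are 65 migratory, Ccr7-positive dendritic cells from subcutaneous B16-F10 melanomas of mice, picked out of 8675 filtered barcodes in 2 single-cell RNA libraries. The wild-type (WT) library gave 37 of 4019 barcodes and the Ndufa4-deficient library (KO below) gave 28 of 4656. A barcode was taken if it held at least 500 unique molecular identifiers (UMIs, the count of captured RNA molecules) and 200 genes, with at most 10% of UMIs from mitochondrial DNA. It also had to hold at least 1 UMI of Ccr7, 1 of Fscn1 and 5 of the MHC class II gene H2-Ab1. Any UMI of the B cell gene Cd79a or of the T cell genes Cd3d, Cd3e and Cd3g kept it out. The members were therefore chosen by measured expression, and their high Ccr7, Fscn1 and H2-Ab1 against other cells is a property of that choice.

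The study asked how the loss of Ndufa4, a small subunit of mitochondrial complex IV, goes with the immune cells of a tumour. Both groups were male mice of the C57BL/6 background, aged 8 weeks, carrying the melanoma line B16-F10 under the skin for 18 days, and they differed by genotype: wild-type or Ndufa4-deficient. CD45-positive cells were sorted from the tumours, and cells of 3 mice per genotype were pooled into 1 library, although the protocol allows for more mice. Spleen libraries of the same design, sorted for CD45 and CD11b, are used in the closing section for side-by-side values. Whether the deficiency is in the whole body or in some cells, and which segment of the gene is missing, is not stated in the sources at hand. With 1 pooled library per genotype, no test between genotypes was possible and no difference has a replicate check. Intervals in square brackets are exact 95% intervals for counting error only; the spread between mice or between cells is outside them.

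Dendritic cells sample antigen in tissue and present it to T cells. Some of them, of both the cross-presenting type (cDC1) and the type mainly serving CD4 T cells (cDC2), switch to a mature state in which the chemokine receptor Ccr7 leads them through lymph vessels to the draining lymph node. In tumours, cells in this state carry costimulatory ligands beside the inhibitory ligands PD-L1 (Cd274) and PD-L2 (Pdcd1lg2), release Ccl22, which draws regulatory T cells, and can make interleukin 12, which drives interferon gamma production.

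The migratory state was also visible in genes that the rule did not use. Beside the 2 rule genes Fscn1 and Ccr7, at 43.9 and 28.3 times their CPM (UMI counts scaled to the same total in each set of cells) in the other tumour barcodes, the members held 81.4 times the CPM of Apol7c and 63.9 times that of Il4i1, an amino acid oxidase that dampens T cells. Cacnb3, a calcium channel subunit typical of this state, stood at 37.3 times, Ccl22 at 33.7 times, the signalling inhibitor Socs2 at 33.2 times and the Rab regulator Tbc1d4 at 30.9 times. All of these are among the 15 genes with the highest ratios, so high values come with that choice. The Apol7c UMIs lay in few of the members. Cacnb3 had a UMI in 33 of 37 WT and 26 of 28 KO members, against 0 of 99 WT natural killer (NK) cells, which allows a share with a UMI of up to 3.03% (3 counts over the cells), and 1 of 462 KO NK cells. Median depths were 16561 and 16303.5 UMIs in the members, and 6728 and 6775.5 in the NK cells. Thinned to 2000 UMIs per cell, 25 of 37 and 13 of 28 members kept a Cacnb3 UMI, against 0 of 95 and 1 of 452 NK cells. Ccl22 had no UMI in 6 of the 37 WT and 7 of the 28 KO members, so not every cell showed all 3 markers.

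The rule's limits fell differently on the libraries. The tumour libraries held 47754169 and 63560706 UMIs in all, and 672426 and 510031 of them belonged to the members. They shared 6 barcode sequences, none of a member; 1 WT and 1 KO member shared a sequence with a spleen library. Of the barcodes that met all other conditions, the Cd3 condition removed 0 of 37 in WT and 19 of 47 in KO (40.4% [26.4, 55.7]), and 16 of those 19 held a single Cd3 UMI. Their median was 41 UMIs of Ccr7 and 27 of Fscn1, against 40.5 and 30.5 in the KO members, and their Relb and Cacnb3, not used by the rule, stood at 584 and 416 CPM against 602 and 420. A Cd3 UMI was also found in 8.38% of WT and 23.4% of KO neutrophils, which do not make Cd3, at median depths of 3880 and 3912 UMIs. In WT 19.1% of barcodes held at least 3 Cd3 UMIs, and in KO 45.5%. The part of free T cell RNA in this loss was not tested, and values that this condition turns, takes across the 1.5-fold mark or moves by over 1.5 times are given both ways below.

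At the other limits, 19 WT and 20 KO barcodes had 1 to 4 H2-Ab1 UMIs and stayed out, with median Ccr7 of 42 and 29.5 UMIs and Ccl22 at 958 and 1668 CPM. Just inside, 6 WT and 2 KO members had a single UMI of Ccr7 or of Fscn1, and their Cacnb3 stood at 172 and 49.7 CPM. Just outside, 38 WT and 23 KO barcodes had Ccr7 but no Fscn1, with Cacnb3 at 15.3 and 51.2 CPM.

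Members were 0.921% [0.649, 1.27] of the filtered WT barcodes and 0.601% [0.400, 0.868] of the KO barcodes. The difference of -0.319 percentage points had an interval of -0.711 to 0.0474, which includes 0. Neutrophils were 19.3% of the WT and 2.02% of the KO barcodes, and without them the members' shares were 1.14% and 0.614%, a difference of -0.527 points [-0.995, -0.113]. With up to 2 Cd3 UMIs allowed, an alternative chosen after seeing the data, 37 WT and 44 KO cells qualified, at 0.921% and 0.945%, and the difference turned to 0.0244 points [-0.397, 0.433]. Among the dendritic cells alone (members, cDC1 and cDC2), members were 37 of 145 in WT (25.5%) and 28 of 176 in KO (15.9%), a difference of -9.61 points [-18.6, -0.751]. These shares used the same Cd3 condition, and no direction of abundance could be read free of it.

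Ndufa4 itself checked the labels. It gave 102 UMIs in 29 of 37 WT members and 2 UMIs in 2 of 28 KO members, with at most 9 UMIs in a WT cell and 1 in a KO cell, a log2 ratio of KO over WT of -5.27 [-8.34, -3.38]. Its paralog AA467197, the mouse form of NMES1, stood at 250 and 267 UMIs and 0.49 [0.24, 0.75], or 0.64 with up to 2 Cd3 UMIs allowed, where Ndufa4 was at -4.26. Of the 12 complex IV subunit genes tested, Ndufa4 alone was past 1.5-fold, and the list's median ratio was 0.03. The 13 genes of mitochondrial DNA all stayed within 1.5-fold, with a median of -0.10.

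Ratios below are log2 of KO over WT, from the UMIs of all members of a library summed and scaled to CPM. Genes with at least 30 UMIs over both libraries were compared, 4499 in all, and 1.5-fold (0.58 on the log2 scale) served as the mark for higher or lower. Of these genes, 595 (13.2%) were higher and 642 (14.3%) were lower in KO, with a median ratio of 0.01. Those percentages are the background for every count of listed genes below. The whole counting interval lay past the mark for 84 genes on the higher and 121 on the lower side.

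Few barcodes carried some of these differences. A single WT barcode of 35767 UMIs held 526 of the 665 WT UMIs of the myeloid lysozyme gene Lyz2, and 78 of the 88 of the neutrophil gene S100a8. Macrophage markers (12 genes) summed to 481 UMIs in WT, 221 of them in that barcode, and to 74 in KO, with cell medians of 1 and 0. Neutrophil markers (9 genes) summed to 202 and 5 UMIs, and monocyte markers (8 genes) to 206 and 20. T cell markers (12 genes, the Cd3 genes at 0 by the rule and Cd4 at 0) summed to 30 UMIs in WT, 27 of them in 1 cell, and to 18 in KO, at most 3 in a cell. NK cell markers gave 193 and 115 UMIs, of which Klrk1, found in 24 WT and 23 KO members, made up 112 and 95. The Langerhans cell genes Cd207 and Epcam and the plasmacytoid gene Siglech were at 0 in both libraries. Leaving out members with at least 3 UMIs of defining markers of another cell type kept 9 WT and 6 KO cells, or 23 and 16 when Klrk1 and Apoe were not counted, and these smaller sets are cited where they alter a result.

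**Figure D1:**
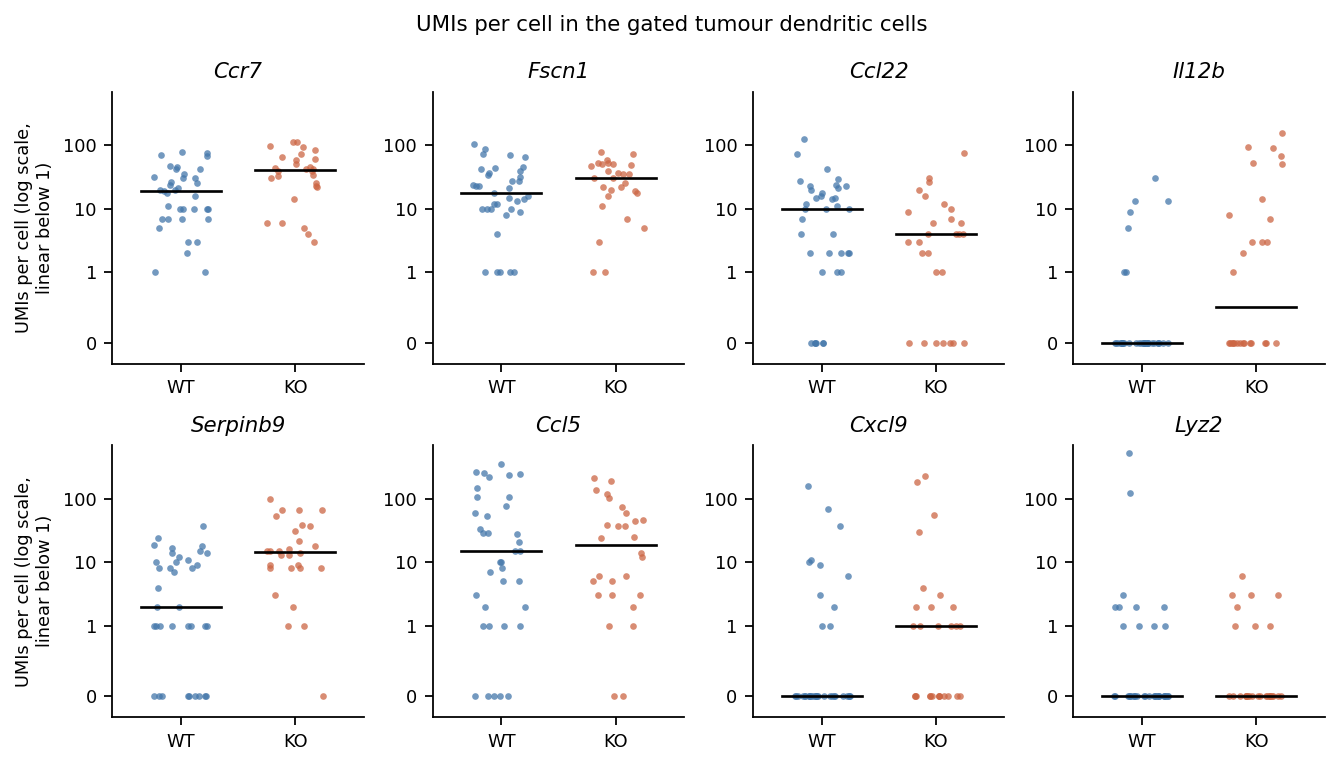
UMIs per cell of 8 genes in the 37 WT and 28 KO members; each point is a cell and the line is the median, on an axis that is logarithmic above 1 UMI. Ccr7, Il12b and Serpinb9 reach higher in KO, while a single WT cell with 526 UMIs sets the Lyz2 total.

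Genes that define the migratory state were mostly alike in the libraries. Of 35 listed genes tested, 7 were higher and 3 lower in KO, and the median ratio was 0.16. The cells were chosen on Ccr7 and Fscn1, so every member held both. Ccr7 (chr11:99144196-99155077, GRCm38.p6), the receptor that steers migration, ranged over 1, 19 and 79 UMIs per cell in WT (lowest, median, highest) and over 3, 40.5 and 113 in KO. That was 1328 CPM in WT and 2478 in KO, a ratio of 0.90 [0.78, 1.03]. The cells of the libraries overlapped, with the KO median above the WT median, and the ratio lay between 0.29 and 0.94 in all 14 alternatives. Fscn1, which bundles actin in the cells' protrusions, ranged over 1, 18 and 106 UMIs in WT and 1, 30.5 and 79 in KO, with a ratio of 0.25 [0.12, 0.39]. Relb, a transcription factor of dendritic cell maturation, stood at 381 and 307 UMIs and 0.09 [-0.13, 0.31], and Cacnb3 at 253 and 214 UMIs and 0.16 [-0.11, 0.43]. Il4i1 was at 0.08 [-0.11, 0.27], Socs2 at -0.31 [-0.53, -0.09] and Tbc1d4 at -0.15 [-0.29, -0.01], all within 1.5-fold. With up to 2 Cd3 UMIs allowed, Il4i1 was at -0.07.

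The genes of the programme past 1.5-fold included Serpinb9, which blocks granzyme B and so guards a cell against killer lymphocytes. Serpinb9 ranged over 0, 2 and 37 UMIs per WT cell and 0, 14.5 and 99 per KO cell, from 257 UMIs in all to 658, a ratio of 1.76 [1.54, 1.97]. Every KO member but 1 had a Serpinb9 UMI, and 28 of 37 WT members had. The 16 KO barcodes kept out by 1 or 2 Cd3 UMIs had less of it, 520 CPM against 1290 in the KO members, and with them the ratio was 1.44, while without the H2-Ab1 condition it was 1.11. NK cells also express Serpinb9 (78.8% of WT and 90.7% of KO NK cells with a UMI), and leaving out mixed barcodes gave 1.24 with 23 and 16 cells and 0.24 with 9 and 6. Bcl2l14, of the Bcl2 family, stood at 146 and 304 UMIs and 1.46 [1.17, 1.75], and 102 of the KO UMIs lay in 1 cell; it was at 0.35 and -0.09 in the sets without mixed barcodes. Nudt17 stood at 55 and 91 UMIs, a ratio of 1.13.

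Chemokines were lower in KO as a list: of 10 genes tested, 7 were lower and 1 higher, with a median of -1.17. In the set of 9 and 6 cells, Ccl4, Cxcl2, Cxcl9 and Cxcl10 had too few UMIs for a value. The median over the fewer genes left was 0.88, the value of Ccl5. Ccl22 ranged over 0, 10 and 125 UMIs per WT cell and 0, 4 and 76 per KO cell, 567 UMIs against 246, a ratio of -0.81 [-1.03, -0.59]. The cells overlapped widely, and 1 WT cell held 125 of the 567 and 1 KO cell 76 of the 246 UMIs. Without the H2-Ab1 condition, which kept out Ccl22-rich barcodes of both libraries, the ratio was -0.05 over 71 WT and 63 KO cells. That was the value nearest 0 of 14 alternatives, all below 0. The Ccl22 ratio was -1.23 in the set of 23 and 16 cells and -3.20 in that of 9 and 6. Ccl17, which shares the receptor Ccr4 with Ccl22, gave 37 and 14 UMIs in 11 and 6 cells, a ratio of -1.0 [-2.01, -0.08] that turned to 0.82 with up to 2 Cd3 UMIs allowed.

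Ccl5, which attracts T and NK cells, had the most UMIs among the chemokines, 2370 UMIs in WT and 1220 in KO. It ranged over 0, 15 and 360 UMIs per WT cell and 0, 19 and 214 per KO cell, so the summed ratio of -0.56 [-0.66, -0.46] and the medians differ in direction, and the ratio lay within 1.5-fold and was 0.88 in the set of 9 and 6 cells. Cxcl9, which draws T cells through Cxcr3 and is induced by interferon gamma, was found in 11 WT and 15 KO cells, with 312 and 517 UMIs and a ratio of 1.13 [0.92, 1.33]. Single cells made up most of that: 1 WT cell held 162 UMIs, and 2 KO cells held 230 and 182. Among members with a Ccl22 UMI the Cxcl9 ratio was -0.01. Cxcl10, a related ligand, gave 202 UMIs in 5 WT cells and 61 in 6 KO cells, a ratio of -1.33. Cxcl16, which binds Cxcr6 on resident T cells, was even, with medians of 13 and 12 UMIs and a ratio of 0.12 [-0.07, 0.32]. Ccl4 and Cxcl2, chemokines also made by macrophages and neutrophils, were lower in KO at 89 against 7 and 90 against 4 UMIs; Ccl4 was at -3.27, and at -1.48 with up to 2 Cd3 UMIs allowed. The markers of those cells were lower in KO too; their part was not tested.

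Of 7 receptors for chemokines and other guidance cues, 5 were lower, and only Ccr7, on which the cells were chosen, was higher. Gpr183, which senses oxysterols and positions dendritic cells, ranged over 0, 6 and 57 UMIs per WT cell and 0, 3.5 and 22 per KO cell, 355 and 131 in all, a ratio of -1.04 [-1.34, -0.75]. It was lower in all 14 alternatives, between -1.84 and -0.37. Cxcr4 was found in 21 WT and 8 KO cells, with 64 and 15 UMIs, and its ratio of -1.69 turned to 0.05 in the set of 23 and 16 cells. The monocyte receptor Ccr2 gave 81 UMIs in 7 WT cells, 56 of them in 1 cell, and 7 UMIs in KO. Il7r, carried by this dendritic cell state, had medians of 5 and 3 UMIs and a ratio of -0.68 [-0.99, -0.37], or -0.48 with up to 2 Cd3 UMIs allowed.

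**Figure D2:**
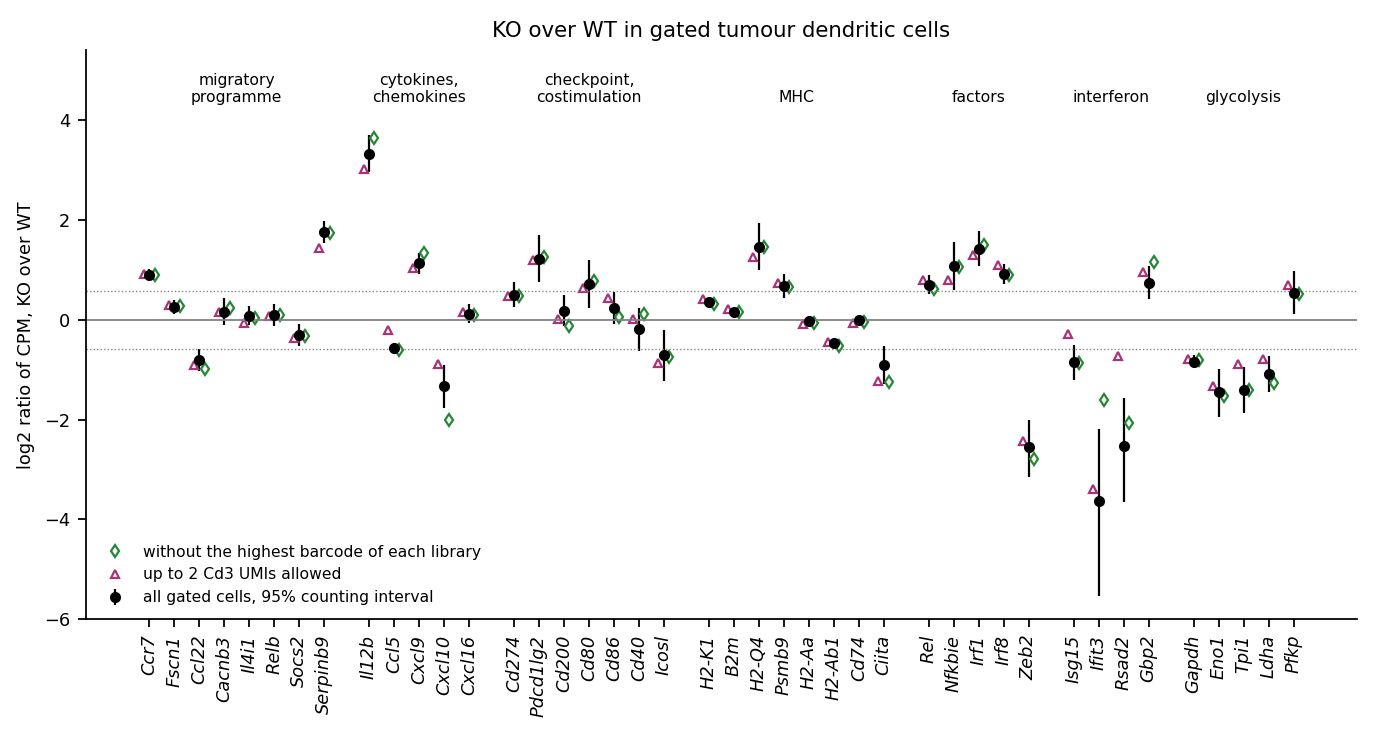
Log2 ratio of CPM, KO over WT, for genes of 7 groups in the members; black points are all 65 cells with 95% counting intervals, triangles allow up to 2 Cd3 UMIs, diamonds leave out each gene's highest barcode per library, and dotted lines mark 1.5-fold. Il12b is highest at 3.32, Zeb2 lies at -2.55, and the points of Ifit3 and Rsad2 move most between the settings.

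Il12b (chr11:44400063-44414033, GRCm38.p6) encodes the p40 subunit of interleukin 12, and of the 8 cytokine genes tested it had the ratio furthest from 0; 2 of the 8 were higher and 3 lower in KO. It was found in 7 of 37 WT members (18.9%) with 73 UMIs, at most 31 in a cell, and in 14 of 28 KO members (50.0%) with 553 UMIs, at most 158. The ratio was 3.32 [2.97, 3.69] at 109 and 1084 CPM. Thinned to 2000 UMIs per cell, 5 WT (13.5%) and 10 KO members (35.7%) kept an Il12b UMI. No UMI was found in 99 WT NK cells and 1 UMI-positive cell among 462 KO NK cells, so the members' shares lie above that background. All 14 alternatives kept the sign, from 1.15 to 3.63; without the H2-Ab1 condition the ratio was 1.73, and with up to 2 Cd3 UMIs allowed it was 3.03. The 16 KO barcodes kept out by Cd3 carried Il12b at 476 CPM, below the KO members and above the WT members.

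The Il12b UMIs sat in few cells. The 6 KO cells with at least 50 Il12b UMIs held 158, 94, 90, 67, 52 and 51, and no WT cell reached 50; the limit was set after these values had been seen. They were 21.4% [8.30, 41.0] of the KO members and held 512 of the 553 UMIs. The same 6 cells held 139 of the 153 KO UMIs of Cd81, a tetraspanin, 138 of the 148 of Gclc, which starts glutathione synthesis, and 227 of the 304 of Bcl2l14. They also held 354 of the 658 KO UMIs of Serpinb9, so the other 22 KO cells, at 888 CPM, still exceeded the 382 CPM of WT. Their median Ccr7 was 96 UMIs against 33.5 in the other 22, at median depths of 28016.5 and 14686 UMIs.

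Some cDC1 markers were counted in these cells, at low numbers. All 7 KO UMIs of Xcr1, the receptor for Xcl1, lay in the 6 cells, with 5 of the 9 of Clec9a, which recognises dead cells, and all 6 of the integrin gene Itgae, while the cDC2 gene Sirpa was at 0 in them. Cadm1, another cDC1 marker, ran the other way, with 1 UMI in the 6 cells and 4 in the other 22. WT members had 0 UMIs of Xcr1, 1 of Clec9a, 3 of Itgae and 3 of Cadm1. The 5 WT cells with at least 5 Il12b UMIs held the 1 of Clec9a, 2 of Itgae and all 3 of Cadm1. Sirpa was present in those 5 WT cells, at 87.3 CPM against 72.6 in the other 32 WT cells. Of 6 cDC1 genes tested over all members, 2 were higher and 2 lower in KO. Of 12 cDC2 genes, 4 were higher and 8 lower. Their median of -1.91 turned to 0.76 over 7 genes without each gene's highest barcodes. Xcr1, Clec9a and Itgae fall away on maturation, and these counts are close to the detection floor. The 6 Il12b-rich KO cells had little Ccl5, 465 CPM against 3335 in the other KO cells, and little Cxcl9, 41.8 against 1489 CPM. Ccl5 went the other way in WT: the 5 cells with at least 5 Il12b UMIs had 4289 CPM against 3307 in the other 32. Cxcl9 was at 94.0 and 569 CPM in those WT sets. Of the 5 WT cells, 1 was the barcode with 526 Lyz2 UMIs, which held 13 of the 73 WT Il12b UMIs. Another, with 31 Il12b UMIs, held 17 UMIs of the macrophage gene C1qb and 17 of Apoe. The plot of single cells shows both sets of KO cells side by side.

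**Figure D3:**
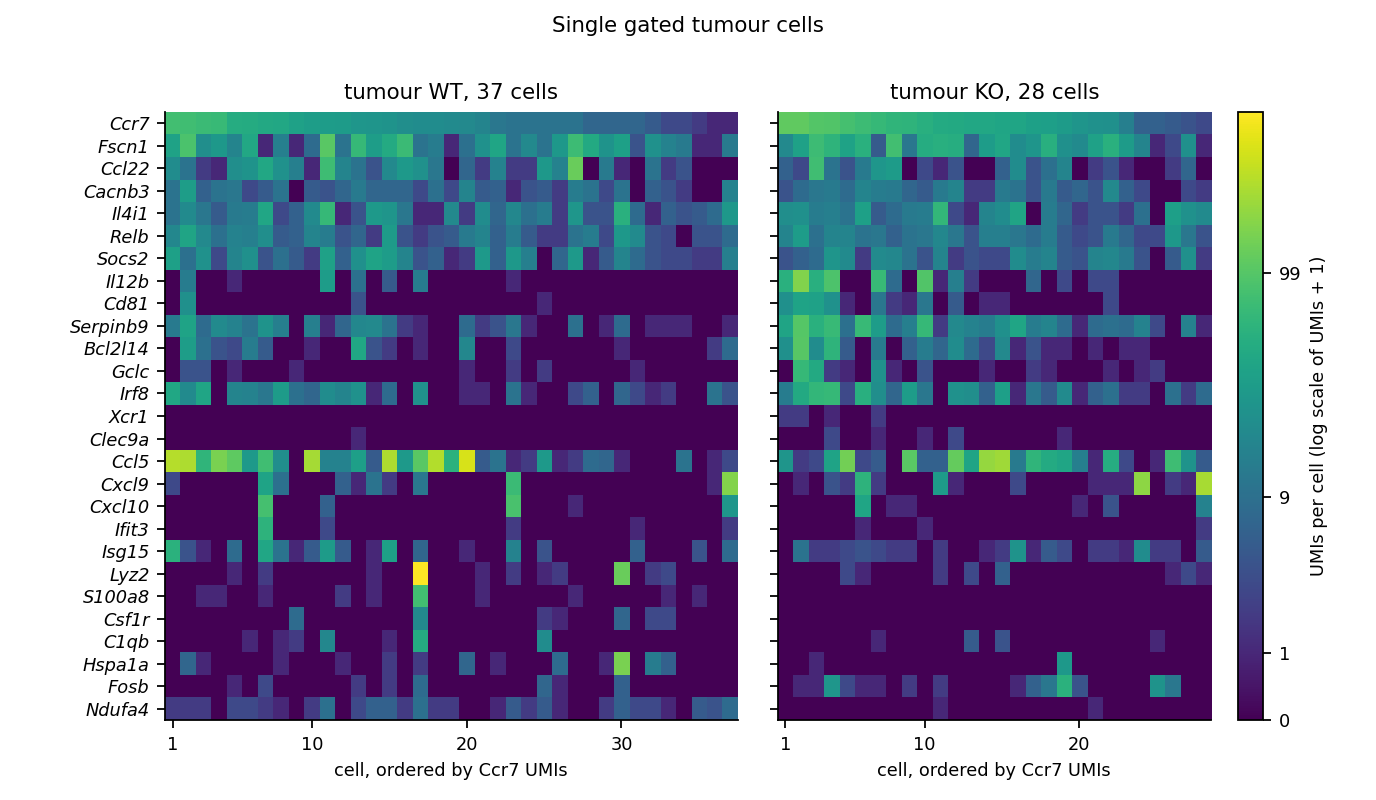
UMIs per cell of 27 genes, with cells in columns ordered by Ccr7 within each library and a logarithmic colour scale. In KO the cells with most Ccr7 carry Il12b, Cd81, Serpinb9, Bcl2l14 and Irf8, whereas Ccl5 and Cxcl9 are bright in other cells; the WT cell with 526 Lyz2 UMIs also carries S100a8 and C1qb.

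Over all 65 cells, the gene most like Il12b was Cd81, with Pearson's r = 0.83 (0.55 within WT, 0.87 within KO) on log2 of CPM + 100. Next came Txndc17 at 0.70 (0.30 within WT, 0.83 within KO) and Nudt9 at 0.69 (0.32 within WT, 0.78 within KO). Cells of a library share their preparation and depth, so these values describe 65 cells and have no p. The ratio of Cd81 was 2.90 over all members, with 22 of its 27 WT UMIs in 1 cell, and 4.93 without the highest barcodes. It was 1.41 in the set of 23 and 16 cells and -0.87 in that of 9 and 6, where Gclc, at 3.61 over all members, was at -0.27 and -0.41. Txndc17, a thioredoxin-like protein, stood at 209 and 624 UMIs in 33 and 27 cells, a ratio of 1.98 [1.75, 2.21].

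Transcription factors were more often higher than lower: 14 of 33 were higher and 5 lower, with a median of 0.35. Irf1, an interferon-induced activator, had medians of 1 and 5.5 UMIs per cell and was found in 23 of 37 WT and 26 of 28 KO cells, a ratio of 1.43 [1.09, 1.77]. Irf8, the lineage factor of cDC1, had medians of 4 and 9 UMIs and a ratio of 0.91 [0.71, 1.12]. Stat4, which relays interleukin 12, had medians of 5 and 11.5 UMIs and a ratio of 0.73 [0.50, 0.97]. Irf1, Irf8 and Stat4 kept their sign in all 14 alternatives, with the lowest ratio at 0.24 for Irf8. Klf6 stood at 505 and 708 UMIs and 0.89, and Nr4a2, an immediate early nuclear receptor, at 37 and 119 UMIs and 2.08.

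Zeb2, a repressor active in cDC2, monocytes and macrophages, ran the other way. It ranged over 0, 2 and 49 UMIs per WT cell and 0, 0 and 10 per KO cell, 232 and 30 in all, a ratio of -2.55 [-3.15, -2.0]. Of the WT cells, 24 had a Zeb2 UMI, and 12 KO cells had. With the 23 WT and 16 KO cells free of most other markers, the ratio was -1.44. Tcf4 was lower too, at 181 and 68 UMIs and -1.01 [-1.44, -0.60], and Irf7 at 82 and 24 UMIs and -1.37, with 47 of the WT UMIs in 1 cell. With up to 2 Cd3 UMIs allowed, Irf7 was at -0.43 and Irf4 at 0.39. Irf4, which drives migration in cDC2, gave 23 and 27 UMIs and 0.63 [-0.23, 1.5], and it turned to -0.23 and -1.15 without mixed barcodes.

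The NF-kappaB pathway, which sets off maturation, had 5 of 23 genes higher and 0 lower, with a median of 0.28 that was -0.16 in the set of 9 and 6 cells and -0.04 after thinning to 2000 UMIs. Rel ranged over 1, 10 and 28 UMIs per WT cell and 4, 19 and 69 per KO cell, a ratio of 0.70 [0.52, 0.89], and Nfkbie, a feedback inhibitor, stood at 61 and 97 UMIs and 1.07 [0.59, 1.55]. Nfkb1, at 0.44 [0.18, 0.69], stayed within 1.5-fold. Survival and death genes had 5 of 14 higher and 1 lower. Bcl2l11, the death activator Bim, was found in 13 WT and 22 KO cells, with 37 and 63 UMIs and a ratio of 1.17 [0.56, 1.79], and Bcl2a1b, which protects from death and has near-identical copies, stood at 841 and 976 UMIs and 0.61 [0.48, 0.75], or 0.58 with up to 2 Cd3 UMIs allowed.

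Ligands that T cells read were mostly within 1.5-fold. Of 13 costimulation and death ligands, 2 were higher and 2 lower, and of 13 checkpoint and tolerance genes, 3 were higher and 1 lower. Pdcd1lg2 ranged over 0, 1 and 8 UMIs per WT cell and 0, 2 and 12 per KO cell, 61 and 108 in all, a ratio of 1.22 [0.76, 1.70] that stayed between 0.40 and 1.33 in all 14 alternatives. Cd274 had medians of 6 and 9 UMIs and a ratio of 0.50 [0.25, 0.75], within the mark. Among the activating ligands, Cd80 stood at 0.72 [0.24, 1.2] (-0.73 in the set of 9 and 6 cells), Cd86 at 0.24 [-0.08, 0.55] and Cd40 at -0.19 [-0.62, 0.23]. Cd40 was at 0.02 with up to 2 Cd3 UMIs allowed. Icosl, the ligand of Icos, was lower at 106 and 49 UMIs and -0.71 [-1.23, -0.21], and Cd200, an inhibitory ligand, was even at 0.18 [-0.13, 0.49].

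Antigen presentation genes were mostly within 1.5-fold, with counts past the mark near the background. Of 22 MHC class I genes, 4 were higher and 0 lower, with a median of 0.39 that lay between 0.22 and 0.73 in all 15 alternatives. H2-K1 ranged over 1, 30 and 76 UMIs per WT cell and 15, 40.5 and 97 per KO cell, a ratio of 0.35 [0.23, 0.46], and H2-D1 and the shared light chain B2m stood at 0.30 and 0.15. The genes past 1.5-fold included H2-Q4 at 1.46 [1.0, 1.94] and the immunoproteasome subunits Psmb9 at 0.67 [0.43, 0.92] and Psmb10 at 0.86 [0.44, 1.28]. H2-Q4 has close relatives in the H2-Q cluster, so its reads are uncertain. Of 13 MHC class II genes, 0 were higher and 3 lower, with a median of -0.28 that ran from -0.38 to 0.33 over the alternatives and turned in the set of 9 and 6 cells. H2-Aa and Cd74, the class II chain and its chaperone, were even, at -0.02 [-0.08, 0.04] and -0.00 [-0.05, 0.05]. Ciita, the class II activator, was at 199 and 81 UMIs and -0.90 [-1.29, -0.52], which turned to 0.66 in the set of 9 and 6 cells, and H2-Ab1, on which the cells were chosen, at -0.46.

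Interferon genes split by type. Of 47 genes listed as induced by type I interferon, 27 were lower in KO and 3 higher, with a median of -0.73. Of 28 genes listed for type II interferon (interferon gamma), 9 were higher and 3 lower, with a median of 0.42. The list of type I genes summed to 4747 UMIs in WT, of which 3 cells held 1056, 433 and 391, and to 2505 in KO, with at most 242 in a cell. The typical cell went the other way: the median per cell was 51 UMIs in WT and 71.5 in KO. The summed and the per-cell values thus differ in direction. The list's median turned to 0.06 without mixed barcodes (23 WT and 16 KO cells), to 1.38 in the smaller set of 9 and 6, and to 0.23 in cells thinned to 2000 UMIs, and it was -0.14 with up to 2 Cd3 UMIs allowed.

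The type II list kept its direction in all 15 alternatives, between 0.12 and 0.85, and its median per cell was 53 UMIs in WT and 88 in KO. Irf1, one of its genes, is given above. Gbp2, a guanylate-binding protein, ranged over 0, 1 and 46 UMIs per WT cell and 0, 3.5 and 19 per KO cell, a ratio of 0.75 [0.42, 1.08]. Among the type I genes, Isg15, a ubiquitin-like modifier, was at 238 and 100 UMIs and -0.85 [-1.2, -0.51], although it was found in 19 of 37 WT and 22 of 28 KO cells, and with up to 2 Cd3 UMIs allowed it was at -0.28. Ifit3, which binds foreign RNA, had 65 UMIs in WT, 57 of them in 1 cell, and 4 in KO. Rsad2 (viperin) had 76 and 10 UMIs in 5 and 4 cells, and Ifit2 72 and 9 UMIs in 6 and 3 cells. The sums of these 3 genes came mostly from 1 or a few WT cells, and those of Ifit2 and Rsad2 turned from -2.60 and -2.53 to 1.26 and 1.99 in the set of 23 and 16 cells, and were at -0.89 and -0.72 with up to 2 Cd3 UMIs allowed.

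The promoters of these genes are shown because interferons are known to act on such genes through short sites near the start. The interferon-stimulated response element (ISRE, which Irf1 can bind) was searched as GAAA, any 2 bases, then GAAA, and the gamma-activated site (GAS) as TTC, any 3 bases, then GAA, which reads alike on either strand, in the 250 bases upstream of each RefSeq start (GRCm38.p6). Both strands were searched and matches may overlap. The ISRE letters were found in 2.98% of 32851 windows and for 3.46% of 27025 genes, for 22 of 50 genes of the type I list (44.0%) and for 12 of 25 of the type II list (48.0%). The GAS letters were found in 7.02% of windows and for 8.13% of genes, for 5 of the 50 type I genes (10.0%) and for 10 of the 25 type II genes (40.0%). Each line below gives a window 5′ to 3′ on the gene's strand, with the matched letters in capitals. Isg15 (chr4:156200819-156201068, minus strand) has 3 overlapping matches, Ifit3 (chr19:34583279-34583528, plus strand) 2, and Rsad2 (chr12:26456453-26456702, minus strand) and Cxcl10 (chr5:92348890-92349139, minus strand) 1 each, all ISRE. Irf1 (chr11:53769764-53770013, plus strand), higher in KO, has 1 GAS match starting 90 bases before the start.
Isg15: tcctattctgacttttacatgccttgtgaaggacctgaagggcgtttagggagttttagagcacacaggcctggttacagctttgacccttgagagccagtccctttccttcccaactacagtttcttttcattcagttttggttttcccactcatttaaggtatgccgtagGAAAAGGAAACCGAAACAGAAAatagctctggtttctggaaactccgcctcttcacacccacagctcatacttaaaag
Ifit3: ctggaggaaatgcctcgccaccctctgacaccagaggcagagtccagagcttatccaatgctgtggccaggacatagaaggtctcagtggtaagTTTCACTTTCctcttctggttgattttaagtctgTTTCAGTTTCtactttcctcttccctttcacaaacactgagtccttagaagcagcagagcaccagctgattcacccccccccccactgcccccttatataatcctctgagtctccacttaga
Rsad2: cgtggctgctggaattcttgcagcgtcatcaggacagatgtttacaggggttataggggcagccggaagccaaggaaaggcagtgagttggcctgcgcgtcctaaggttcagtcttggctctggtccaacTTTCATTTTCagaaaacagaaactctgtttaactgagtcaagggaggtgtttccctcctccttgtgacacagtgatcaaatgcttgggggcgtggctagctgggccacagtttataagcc
Cxcl10: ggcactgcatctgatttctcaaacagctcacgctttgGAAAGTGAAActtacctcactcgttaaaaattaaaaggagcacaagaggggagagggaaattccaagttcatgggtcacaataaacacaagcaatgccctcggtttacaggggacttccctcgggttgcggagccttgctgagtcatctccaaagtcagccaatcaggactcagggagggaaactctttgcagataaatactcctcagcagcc
Irf1: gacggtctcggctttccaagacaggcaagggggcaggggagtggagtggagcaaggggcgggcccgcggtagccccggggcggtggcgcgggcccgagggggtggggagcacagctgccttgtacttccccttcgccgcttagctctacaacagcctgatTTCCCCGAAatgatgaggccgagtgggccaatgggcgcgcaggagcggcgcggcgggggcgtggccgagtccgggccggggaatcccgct

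A match is a run of letters and not a shown binding site. The letters did not sort the genes by direction: Ifit2, lower in KO, has no ISRE match in either of its windows, and Gbp2, higher in KO, has 1. The other window of Irf1 holds no GAS match. The windows of Cxcl9, Gbp2 and Psmb9 hold no GAS match, and that of Il12b no ISRE match, which says nothing of other sites.

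Glycolysis genes were lower in KO. Of 13 tested, 9 were lower and 0 higher, with a median of -0.84, which lay between -1.11 and -0.47 in all 15 alternatives. Gapdh ranged over 5, 33 and 185 UMIs per WT cell and 5, 18.5 and 67 per KO cell, 1531 and 649 in all, a ratio of -0.84 [-0.97, -0.71]. Eno1 stood at 173 and 48 UMIs and -1.45 [-1.94, -0.98], Tpi1 at 181 and 52 UMIs and -1.40 [-1.87, -0.95], and Ldha, which makes lactate, at 248 and 89 UMIs and -1.08 [-1.45, -0.72]. The list was also lower in the median cell, at 70 UMIs in WT and 35.5 in KO. Scaled to each cell's depth, the cell medians were closer, at 3643 CPM in WT and 2533 in KO, within 1.5-fold of each other. Gapdh without its highest barcodes was at -0.81. Pfkp, a phosphofructokinase, stood at 87 and 96 UMIs and 0.54 [0.11, 0.98]. With up to 2 Cd3 UMIs allowed the list's median was -0.58, just inside the mark, and Pfkp was at 0.70. Ldha turned to 0.27 in the set of 9 WT and 6 KO cells. Of 11 hypoxia genes, which overlap with glycolysis, 5 were lower and 0 higher, with a median of -0.58, but without each gene's highest barcodes 2 of 8 were lower, at a median of -0.27. The hypoxia list's cell medians were even, at 1266 CPM in WT and 1248 in KO.

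Set beside the other dendritic cells of the same tumours, some lists had like medians over the same genes and some did not. They were cDC1 (62 WT and 107 KO cells with at least 2 UMIs of Xcr1 and Clec9a) and cDC2 (46 and 41 cells with Cd209a and Flt3). Over the 13 glycolysis genes the median was -0.84 in the migratory cells, -0.14 in cDC1 and 0.19 in cDC2. Over the 47 type I interferon genes it was -0.73, 0.32 and 0.88, and over 24 type II genes 0.42, 0.92 and 1.15. Over 8 chemokines it was -1.79, 0.69 and 1.18. In the members alone, the type I median ran from -0.94 to 1.38 over the alternatives and the chemokine median from -1.33 to 0.88. Both turned in the set of 9 and 6 cells, where fewer genes were tested. The type I list's median cell had 51 UMIs in WT and 71.5 in KO. Like medians were found for transcription factors, at 0.30, 0.35 and 0.36 over 29 genes, survival genes, at 0.25, 0.44 and 0.35 over 13, and MHC class I, at 0.40, 0.24 and 0.25 over 21. The differences between these cells could not be tested with 1 library per genotype.

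**Figure D4:**
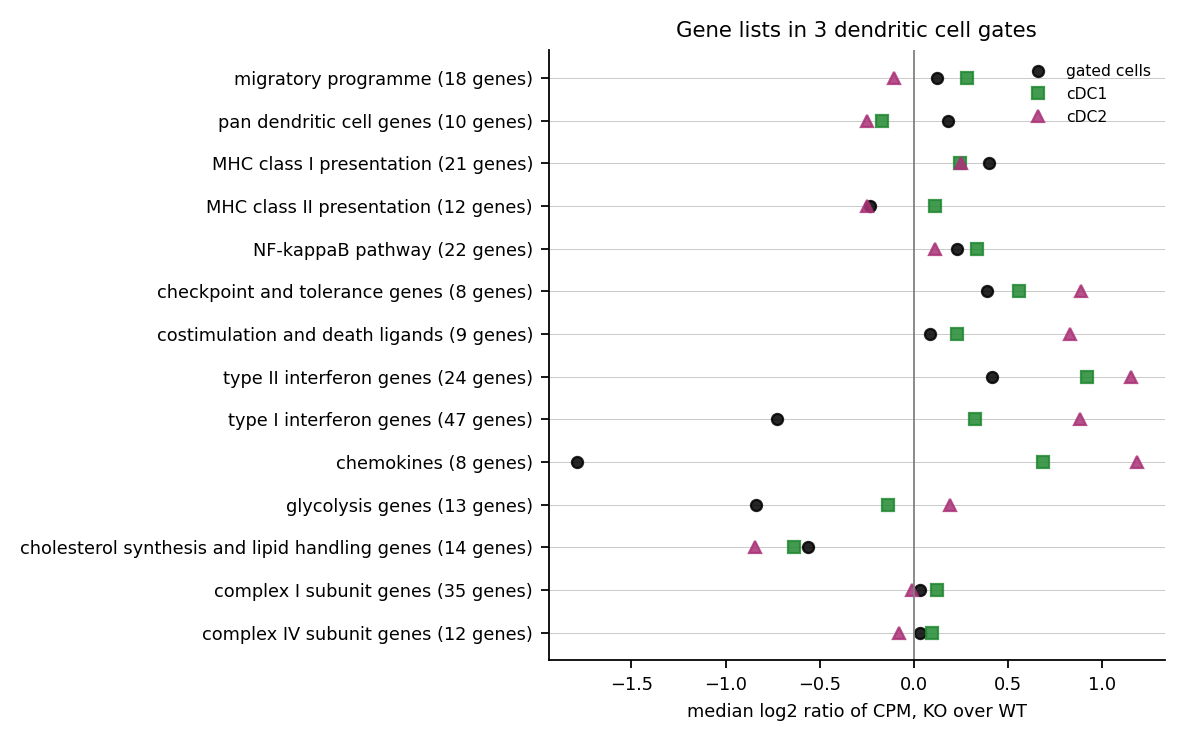
Median log2 ratio of CPM, KO over WT, of 14 gene lists over genes tested in all 3 kinds of tumour dendritic cell: members (circles), cDC1 (squares) and cDC2 (triangles). Chemokines, type I interferon and glycolysis genes lie left of 0 in the members, at -1.79, -0.73 and -0.84. The members' chemokine and type I medians were above 0, over fewer genes, in the set of 9 and 6 cells without mixed barcodes.

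Single genes were set side by side as well. Il12b was at 0 UMIs in WT cDC1 and at 128 CPM in KO cDC1, against 109 and 1084 CPM in the members, and at 0 in the cDC2 of both libraries. Serpinb9 was 24.2 and 140 CPM in cDC1 and 382 and 1290 CPM in the members. Ccr7 was 13.03 and 128 CPM in cDC1, a ratio of 3.29 [2.66, 4.01]. Members were left out of the cDC1, so cells with both Ccr7 and Fscn1 were missing from them by rule. That choice limits what this Ccr7 value can show. Irf1 was higher in KO in all 3, with 1.43 in the members, 0.93 in cDC1 and 2.0 in cDC2. Zeb2 stood at -2.55 in the members, 0.44 in cDC1 and 0.26 in cDC2, and Gapdh at -0.84, 0.00 and 0.04.

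By the size of the ratio alone, the genes furthest from 0 with their whole interval past 1.5-fold were Gclc, Il12b, Top2a, Cd81, Fosb, Afap1, Smagp, Pclaf, Laptm4b, Arid5a, Pmepa1 and Nr4a2 on the higher side. Top2a and Pclaf are cycling genes whose KO UMIs came to 90.3% and 84.6% from 1 cell. Fosb, an immediate early factor, stood at 30 and 148 UMIs in 8 and 15 cells, and Laptm4b, a lysosomal membrane protein, at 14 and 57 UMIs. On the lower side were Ndufa4, Lrp1, Clec4n, Lyz2, S100a8, S100a9, Cxcl2, Cebpb, Stxbp6, Thbs1, Fn1 and Spp1. Most of these are genes of macrophages, monocytes or neutrophils, and 1 WT barcode held 79.1% of the Lyz2, 88.6% of the S100a8 and 81.0% of the S100a9 UMIs. Stxbp6, a regulator of membrane fusion, was spread over 18 WT cells, with 65 UMIs against 3 in 3 KO cells, a ratio of -4.04 [-6.35, -2.43]. With up to 2 Cd3 UMIs allowed, Stxbp6 was at -2.74, Cebpb at -2.43 instead of -4.09, Lrp1 at -3.21 instead of -4.96, Clec4n at -3.68 instead of -4.69 and Lyz2 at -4.0 instead of -4.66.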

How the data were processed

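The authors deposited filtered UMI count matrices of 10x Chromium 3' libraries, chemistry 3.1, raw and not normalized. Per the file headers, Cell Ranger 6.0.0 wrote them; the submitters' processing notes name Cell Ranger 3.1, Seurat 3.1 and 3.1.4 and GRCm38. Barcodes were filtered as described above, with no doublet caller. UMIs of the members were summed per library, scaled to CPM and set as log2 of KO over WT with an exact conditional binomial interval of 95%. A gene at 0 in 1 library was bounded at 3 counts. With 1 library per genotype no p was computed. PCR and free RNA are not covered by the intervals.

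Here cDC1 were other filtered barcodes with at least 5 H2-Ab1 UMIs, none of Cd79a or Cd3 and at least 2 of Xcr1 and Clec9a; cDC2 had 0 of those 2 genes and at least 1 of Cd209a and of Flt3. NK cells had at least 1 Ncr1 UMI, no Cd3 and under 5 H2-Ab1; neutrophils were gated on S100a8 and S100a9. Named genes were those of 45 gene lists, the 12 per direction furthest from 0 with the whole interval past 1.5-fold, and the 15 with the highest ratio over other barcodes (at least 100 UMIs). The members and lists were chosen with earlier results of these data known. The alternatives, 14 planned and 3 chosen after seeing the data, changed the cell rule, depth, scaling, low-count filter or single barcodes. Some listed genes are not reported here. The log2 ratio and its interval were tested on simulated gene totals with counting error alone, without a spread between cells. Tools were Python 3.11.15, numpy 2.4.6, scipy 1.17.1 and pandas 2.3.3.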

Additional observations from a re-analysis of the deposited data

Results flagged for a closer look

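In the spleen the same rule took 34 WT and 26 KO barcodes. In the tumour 4499 genes were compared, and in the spleen 2955. The 7 genes given here had log2 ratios of KO over WT of opposite sign, with counting intervals clear of 0 in both organs. They are not a count of all genes that differ in sign. Each rests on 1 library per genotype and organ, and the difference was not tested. Ccl22 stood at -0.81 in the tumour and 4.32 in the spleen, where it had 5 UMIs in WT and 63 in KO. Apol7c stood at -0.65 and 2.45, with its tumour UMIs in 6 WT and 4 KO cells. Socs2, at -0.31 and 1.69, and Ccl5, at -0.56 and 0.64, were within 1.5-fold in the tumour. Lgals3, a galectin, ran the other way, at 0.95 in the tumour and -0.92 in the spleen. The neutrophil genes S100a8 and S100a9 stood at -4.48 (a bound, with 0 KO UMIs) and -4.32 in the tumour and at 1.56 and 0.70 in the spleen, and in the tumour 1 WT barcode held most of their UMIs.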

How the results depend on the processing

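Of 1300 values of 98 named genes under the alternatives, 1024 moved by less than the counting interval, 249 moved further and 27, of genes past 1.5-fold, changed sign; 57 of the 76 named genes past 1.5-fold kept their sign in every alternative that gave a value. Values under 10 UMIs were not given. The counts of genes higher and lower in KO were 595 and 642 of 4499 tested (13.2% and 14.3%). Without mixed barcodes they were 234 and 160 of 903 (25.9% and 17.7%). When Klrk1 and Apoe were not counted as mixed, they were 389 and 328 of 2827 (13.8% and 11.6%). They were 1931 and 2479 of 9919 with no filter on low counts (19.5% and 25.0%). After thinning to 2000 UMIs they were 91 and 67 of 613 (14.8% and 10.9%). The share difference was -9.61 points among members, cDC1 and cDC2. Without mixed barcodes (9 WT and 6 KO cells) the medians were 1.38 for type I interferon and 0.88 for chemokines, and the ratios were Bcl2l14 -0.090, Cd80 -0.73, Cd81 -0.87, Ciita 0.66, Gclc -0.41, H2-DMb1 1.12, Irf4 -1.15, Isg15 1.12, Ldha 0.27 and Tnfrsf9 0.046. With Klrk1 and Apoe not counted (23 and 16 cells) the type I median was 0.059, and the ratios were Cxcr4 0.049, Gclc -0.27, Hspa1a 0.84, Ifit2 1.26, Irf4 -0.23, Lyz2 1.06 and Rsad2 1.99. Thinning to 2000 UMIs gave 0.23 for the type I median, 0.14 for H2-DMb1 and 0.14 for Tnfrsf9. A rule applied to barcodes thinned to 3000 UMIs gave Apol7c 1.26, Ccl17 0.013, Ifit2 0.34, Lgals3 -0.076 and Lyz2 0.97. Ccl17 was 0.82 with up to 2 Cd3 UMIs allowed, Cxcl9 was -0.012 with a Ccl22 UMI required, and Ifit2 was 0.39 with at least 2 UMIs of Ccr7 and Fscn1. The cause was not tested. Sets without mixed barcodes hold fewer cells and fewer tested genes. No paired analysis was possible because each genotype and organ has 1 library.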

Other observations

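Genes of cholesterol synthesis and lipid handling were lower in KO in 7 of 14 tested, with a median log2 ratio of -0.56, and 0 were higher; the list's cell medians were even, at 3795 CPM in WT and 3831 in KO. Idi1, an isomerase of the sterol pathway, stood at 167 and 66 UMIs and -0.94. The same genes had medians of -0.64 in cDC1 and -0.85 in cDC2. Of 18 lysosome and cathepsin genes, 6 were lower and 0 higher, with a median of -0.39, but the list's summed level was higher in KO, at 16928 CPM in WT and 19040.0 in KO, with cell medians of 10562 and 18881 CPM. Ctsd, the protease cathepsin D, gave 56 and 12 UMIs and -1.82. Of 6 cell cycle genes, 4 were higher in KO, but 297 of the list's 734 KO UMIs lay in 1 cell. The heat shock gene Hspa1a gave 198 UMIs in WT, 148 of them in 1 cell, and 28 in KO. In the spleen, Serpinb9 stood at 20 and 73 UMIs and 2.53, and Il12b at 9 and 8 UMIs and 0.50.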
